A study of Mus musculus with 13 samples.

Results

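Superoxide dismutases and the enzymes that clear peroxide were followed in spinal motoneurons of SOD1-G93A mice, a transgenic model of amyotrophic lateral sclerosis (ALS) that carries a mutant human SOD1 gene. The set holds 10 of the 48709 genes in the count tables: Sod1, Sod2, Sod3, Ccs, Cat, Gpx1, Gpx4, Prdx1, Prdx3 and Txn1, matched by mouse gene symbol. All 10 passed the filter on low counts. There were 13 libraries in 3 groups, each from motoneurons of a 65-day-old mouse. The 4 mice of the AAV-miR SOD1 group (replicates 1 to 4) had received, into the cerebral ventricles on postnatal day 2, an adeno-associated virus that makes an artificial microRNA against human SOD1 in astrocytes. The 5 AAV-miR ctrl mice (replicates 1, 3, 4, 5 and 6) had received a control vector, and 4 littermates (replicates 2, 3, 5 and 6) were not injected. The mutant transgene was carried by all 3 groups, so the comparisons hold no healthy mouse. A pool of 500 motoneurons per mouse was cut by laser from cresyl violet-stained sections of lumbar cord frozen inside its vertebrae. Values are listed below in the order of these replicate numbers.

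Superoxide, a by-product of respiration and of oxidases, is turned into hydrogen peroxide and oxygen by superoxide dismutases. Sod1 is the copper-zinc enzyme of the cytosol, Sod2 the manganese enzyme of the mitochondrial matrix and Sod3 the secreted copper-zinc enzyme, while Ccs is the chaperone that loads copper into Sod1. Peroxide is then removed by catalase, by glutathione peroxidases and by peroxiredoxins, the last kept active by thioredoxin. Mutations of human SOD1 cause an inherited form of ALS, in which the mutant protein is toxic to motoneurons and to the glia around them.

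Between 13.9 and 37.4 megacounts per library were assigned to genes, and each member had at least 122 counts in each library. All 7 motoneuron markers were detected in every library, with a summed level from 1376 to 5269 CPM (counts per megacount, scaled by library). Markers of tissue outside the cord were also present: 7 skeletal muscle genes summed to between 6922 and 111707 CPM, 7 neutrophil genes to between 9969 and 77393 CPM, and 6 erythroid genes to between 3533 and 47051 CPM. In such bulk samples, fewer cells of a type and less RNA per cell cannot be told apart. In 2 of the tables the header went against the label, with SOD named for replicate 3 of the control vector and the control vector named for the non-injected mouse of the same number; the labels were kept. Leaving out both libraries left every count of members past the threshold at 0.

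Gpx1, the cytosolic glutathione peroxidase that reduces hydrogen peroxide with glutathione, was the member that stood furthest from the controls, at a fitted 2.29 times the level of both control groups together in AAV-miR SOD1. The other 9 members had log2 differences between -0.57 and 0.06 in that comparison. By edgeR's quasi-likelihood test with Benjamini-Hochberg adjustment over 17403 genes, 0 of the 10 members passed an adjusted p of 0.05 in any of the 4 comparisons, and among all genes 0% did. At an unadjusted p under 0.05, AAV-miR SOD1 had 1 of 10 members higher, Gpx1, against AAV-miR ctrl, against the non-injected group and against both together, where 5.99%, 9.36% and 10.2% of all genes were higher. No member was lower at that level, against 8.54%, 11.5% and 12.1% of all genes. Between AAV-miR ctrl and non-injected mice, 0 members were higher (1.38% of all genes) and 0 lower (2.24%). The comparisons share groups and are therefore not independent of each other. In each comparison 0 members had groups that did not overlap, while 1.27% of all genes lay wholly higher and 2.46% wholly lower in AAV-miR SOD1 than in AAV-miR ctrl. The corresponding shares were 5.9% and 5.81% against the non-injected group, 0.299% and 0.517% between the 2 control groups, and 0.592% and 1.23% against both groups.

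**Figure D1:**
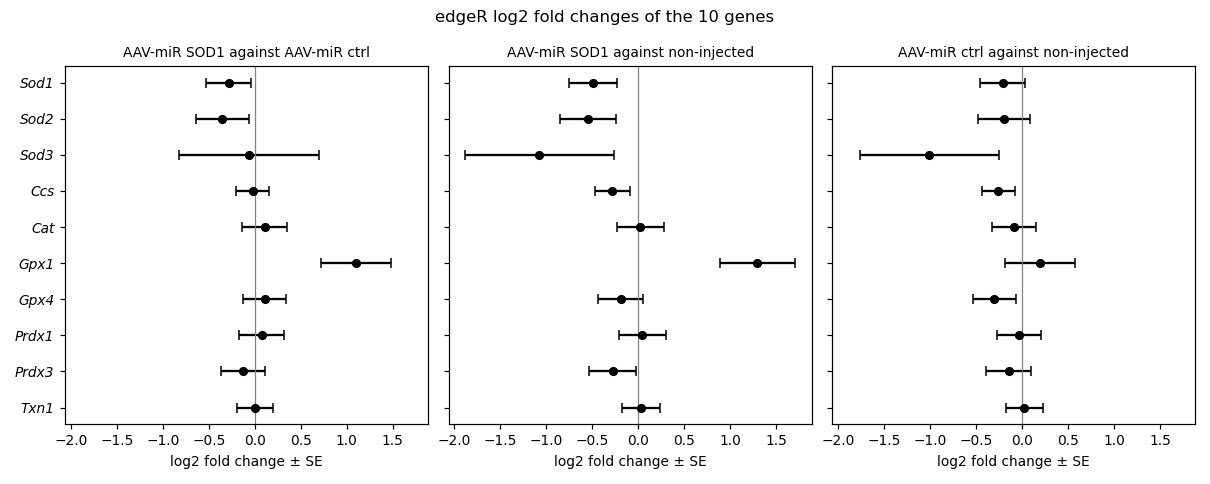
Log2 fold changes of the 10 members in the 3 comparisons between pairs of groups (points), with 1 standard error on either side (bars), from edgeR's fit on 13 libraries; the vertical line marks no difference. Gpx1 lies at 1.10 and 1.29 in the panels of AAV-miR SOD1 and at 0.20 between the control groups, and Sod3 has the widest bars.

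On a scale of CPM per kilobase of the principal transcript, which allows levels of different genes to be compared, Gpx1 was by far the most abundant member, with a mean of 2984 ± 1689 (SD, n = 13). Sod1 at 447 ± 122 and Txn1 at 406 ± 61.1 came next. Gpx4 followed at 236 ± 56.2, Prdx3 at 191 ± 42.3, Prdx1 at 107 ± 24.8, Cat at 71.6 ± 15.9, Sod2 at 55.2 ± 15.8 and Ccs at 40.0 ± 6.91. Sod3 was the lowest at 11.1 ± 10.9. These are levels of the whole sample, with its erythroid, neutrophil and muscle transcripts, and not of motoneurons alone. The lowest Gpx1 library, at 1135, lay above the highest of Sod1, at 737, whereas every other pair of neighbours in this order overlapped in its range over the libraries. The place of Sod1 depended on the length used, since its principal transcript has 641 bases but all its annotated exons cover 3970: by the second length its level was 72.2 and its rank 6, and Gpx1 stayed first.

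**Figure D2:**
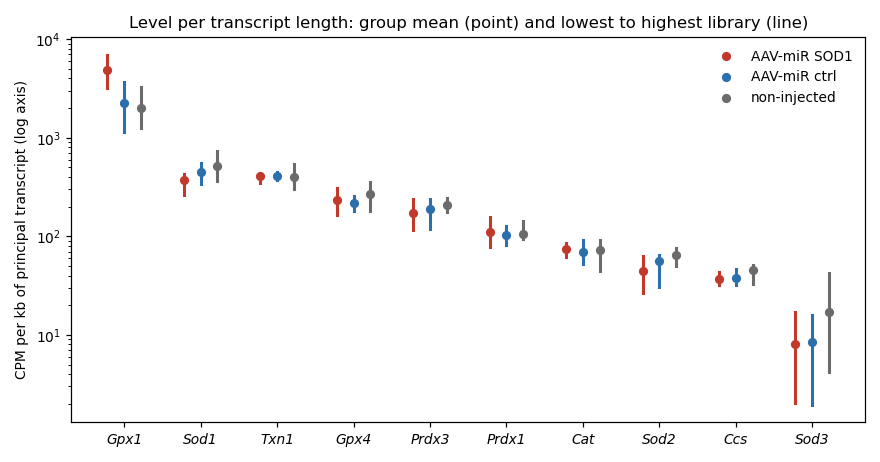
Level of each member in CPM per kilobase of principal transcript on a log axis, with points at the group means and lines from the lowest to the highest library of each group. Over all libraries Gpx1 ranged from 1135 to 6954, and Sod3 from 1.96 to 42.0.

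The members also differed in how steady they were. The SD of log2 CPM within groups was 1.38 for Sod3 and 0.58 for Gpx1, against 0.23 for Txn1 and for Ccs, with Sod2 at 0.45 and the other 5 between 0.34 and 0.37. The median over 5128 tested genes with a mean log2 CPM above 5 was 0.37, and over all 17403 tested genes it was 0.54. Sod3 lay around that bound, with a mean log2 CPM of 4.56 in AAV-miR SOD1, 4.59 in AAV-miR ctrl and 5.38 in non-injected mice. Sod3 covered a 21.4-fold range over the 13 libraries and Ccs a 1.60-fold range.

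Sod1 (ENSMUSG00000022982, GRCm38 chr16:90220754-90226329, plus strand) was measured at 168, 273, 235 and 271 CPM in AAV-miR SOD1. In AAV-miR ctrl it stood at 272, 352, 219.9, 278 and 320.0 CPM, and in the non-injected mice at 377, 472, 255 and 232 CPM. The groups overlapped, and the highest values were those of non-injected replicates 2 and 3. The means were 237 ± 48.9 CPM (SD, n = 4), 288 ± 50.3 CPM (SD, n = 5) and 334 ± 112 CPM (SD, n = 4) respectively. Against both control groups the log2 difference was -0.39 ± 0.22 (SE; adjusted p = 0.327), a ratio of 0.764-fold, with 2 SE on either side reaching from 0.561 to 1.04. No source used here says where reads from the human transgene were counted, so this count cannot be assigned to the mouse gene alone. A processed copy, Gm8566, matches the Sod1 transcript at 97.8% identity over 465 bases and drew 5330 counts in all, against 89586 for Sod1, so reads may have been split between them. Without the 2 libraries whose headers went against their labels, one of them the highest for Sod1, the log2 difference against both groups was -0.18. It was -0.26 without AAV-miR SOD1 replicate 1 and -0.09 with the number of detected genes as covariate. Other settings gave a larger difference: -0.45 with the replicate number as a block and -0.46 without non-injected replicate 6. Over the libraries numbered 1 to 4 it was -0.53 (edgeR's unadjusted p = 0.0446, adjusted p = 0.348). Over the same libraries it was -0.82 against non-injected mice alone (edgeR's unadjusted p = 0.0165, adjusted p = 0.290). The only non-injected libraries with such numbers were replicates 2 and 3, the highest for Sod1, and replicate 3 had a contradicted header. With all numbers kept but both contradicted libraries left out, Sod1 differed from non-injected mice by -0.21 (edgeR's unadjusted p = 0.408, adjusted p = 0.730).

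The windows from 250 bases before to 50 after the start site were searched on both strands for the core of the antioxidant response element, TGACNNNGC, through which the factor NRF2 acts on many antioxidant genes. RefSeq (GRCm38.p6) gave such a window for 8 members, without Sod3 and Ccs. The core was found in 2 of the 8, Sod1 and Prdx1, and in 12.39% of all 32851 windows. They are shown because the family is commonly discussed as an NRF2 response, with the match, which lies on the minus strand in both, in capitals and the plus strand printed.
Sod1, chr16:90220696-90220725: gccaaggtggGCGTGGTCAgactcaggcct
Prdx1, chr4:116685456-116685485: cagggaaagcGCTGAGTCAtcccccgtagg
Counted from the RefSeq start sites, at base 90220762 for Sod1 and 116685599 for Prdx1, which lie downstream of the gene starts in GENCODE, the match covers bases 56 to 48 before the start of Sod1 and 133 to 125 before that of Prdx1. These 2 genes had log2 differences of -0.39 and 0.06 against both control groups. The same windows were also searched for a GATA motif, AGATAA. It was found in 0 of the 8 members and in 11.18% of all windows.

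Sod2 (ENSMUSG00000006818, chr17:13006846-13040063, plus strand) was at 200.2, 157, 367 and 313 CPM in AAV-miR SOD1. It was at 182, 362, 377, 367 and 369 CPM in AAV-miR ctrl and at 444, 339.5, 291 and 440.1 CPM in non-injected mice. AAV-miR SOD1 replicates 1 and 2 and AAV-miR ctrl replicate 1 were the 3 lowest libraries, and the groups overlapped. The log2 difference was -0.35 ± 0.29 (SE) against AAV-miR ctrl, -0.55 ± 0.30 against non-injected and -0.45 ± 0.26 against both, where the adjusted p was 0.334. With the number of detected genes as covariate the last value was -0.11. The ratio of Sod1 to Sod2 counts had medians of 0.853 in AAV-miR SOD1, 0.868 in AAV-miR ctrl and 0.863 in non-injected mice, with ranges that overlapped (0.642 to 1.74, 0.583 to 1.50 and 0.526 to 1.39).

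Sod3 (ENSMUSG00000072941, chr5:52363791-52371418, plus strand) varied most. Its levels were 29.6, 21.2, 63.4 and 7.71 CPM in AAV-miR SOD1, 7.33, 12.6, 59.4, 54.3 and 26.4 CPM in AAV-miR ctrl and 18.2, 15.7, 66.0 and 157 CPM in non-injected mice. Non-injected replicate 6 was the highest of all, and each group held libraries both under 20 and over 50 CPM. The log2 difference against both control groups was -0.57 ± 0.70 (SE; adjusted p = 0.682), a ratio of 0.673-fold, with 2 SE on either side reaching from 0.255 to 1.78. Its direction turned to 0.79 with the replicate number as a block and to 0.54 over the libraries numbered 1 to 4, so no direction can be given.

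Ccs (ENSMUSG00000034108, chr19:4825366-4839332, minus strand) was at 36.4, 34.3, 42.4 and 46.1 CPM in AAV-miR SOD1, 40.9, 38.1, 39.8, 49.7 and 34.0 CPM in AAV-miR ctrl and 53.1, 35.2, 54.4 and 51.0 CPM in non-injected mice. The groups overlapped, with non-injected replicates 2, 5 and 6 the highest 3 libraries. Against both control groups the log2 difference was -0.15 ± 0.16 (SE; adjusted p = 0.627), a ratio of 0.899-fold, with 2 SE on either side reaching from 0.716 to 1.13. There were 5.71 Sod1 counts per Ccs count at the median of AAV-miR SOD1, 6.65 in AAV-miR ctrl and 5.89 in non-injected mice.

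**Figure D3:**
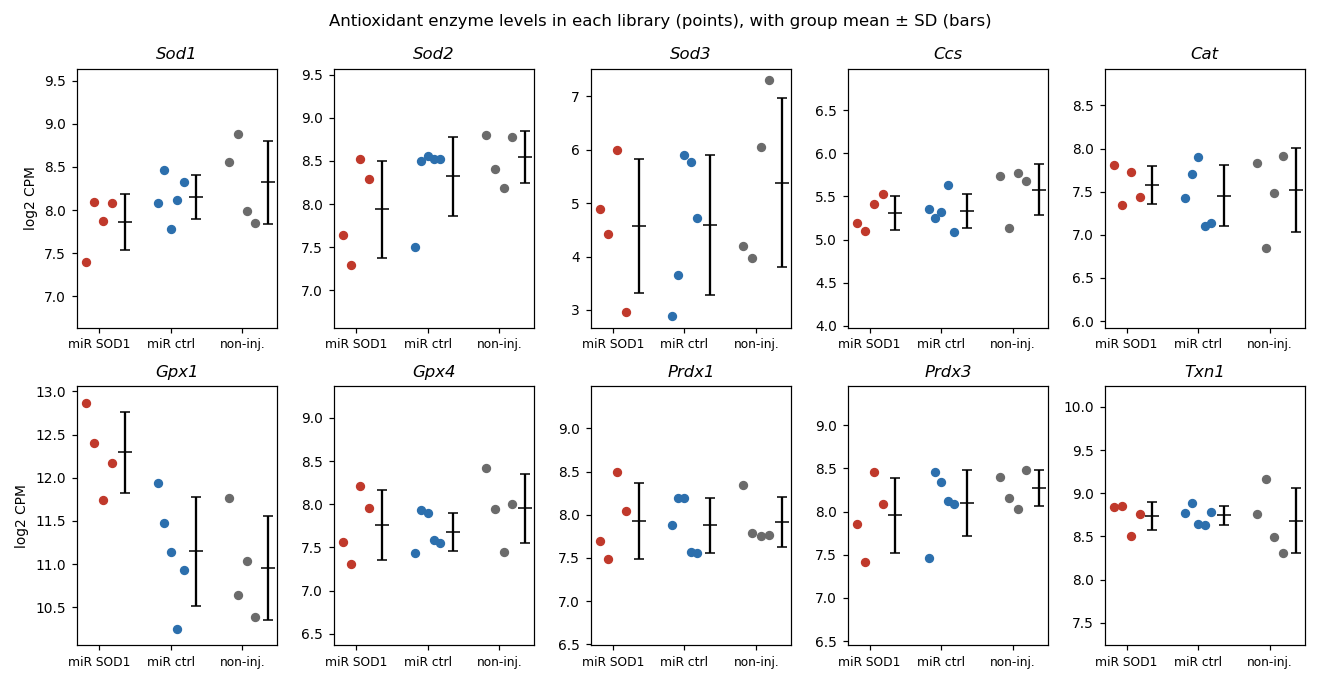
Log2 CPM of each member in each of the 13 libraries (points, in replicate order), 1 panel per gene, with the mean and SD of each group (bars). The groups overlap in every panel, with AAV-miR SOD1 highest for Gpx1 (mean 12.29, against 11.15 in AAV-miR ctrl and 10.96 in non-injected mice).

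Catalase, Cat (ENSMUSG00000027187, chr2:103453849-103485160, minus strand), breaks down hydrogen peroxide in peroxisomes. Its levels were 224, 163, 212 and 174 CPM in AAV-miR SOD1, 171, 208, 239.7, 137 and 141 CPM in AAV-miR ctrl and 227, 115, 178 and 241 CPM in non-injected mice. The lowest and the highest library both belonged to the non-injected group, replicates 3 and 6. Against both control groups its log2 difference was 0.06 ± 0.22 (SE; adjusted p = 0.901), a ratio of 1.04-fold, with 2 SE on either side reaching from 0.773 to 1.41.

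Gpx1 (ENSMUSG00000063856, chr9:108338903-108340343, plus strand) was at 7455, 5396, 3411 and 4608 CPM in AAV-miR SOD1. It was at 3933, 2840.5, 2262, 1217 and 1947 CPM in AAV-miR ctrl and at 3479, 1596, 2093 and 1341 CPM in non-injected mice. The means were 5217 ± 1700.1 CPM (SD, n = 4), 2439.8 ± 1020.1 CPM (SD, n = 5) and 2127 ± 954 CPM (SD, n = 4). AAV-miR SOD1 replicates 1, 2 and 4 were the 3 highest libraries; the highest library of each control group, replicate 1 of AAV-miR ctrl and replicate 2 of the non-injected mice, lay above AAV-miR SOD1 replicate 3, so the groups overlapped. The gene took between 0.124% and 0.778% of a library's counts and ranked from 8 to 78 among all genes.

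The log2 difference of Gpx1 was 1.10 ± 0.38 (SE) against AAV-miR ctrl (unadjusted p = 0.0121, adjusted p = 0.274). It was 1.29 ± 0.41 against non-injected mice (unadjusted p = 0.00686, adjusted p = 0.142). Against both groups it was 1.20 ± 0.33 (unadjusted p = 0.00271, adjusted p = 0.0962), a ratio of 2.29-fold, with 2 SE on either side reaching from 1.45 to 3.62. Between AAV-miR ctrl and non-injected mice it was 0.20 ± 0.38. The call depended on the tool: the adjusted p against both groups was 0.0119 with DESeq2, which called 1521 of the 17403 genes, and 0.0316 with limma-voom and quality weights, which called 1461. DESeq2 also called Gpx1 against non-injected mice (adjusted p = 0.0274, 1025 genes called). Without AAV-miR ctrl replicate 1, edgeR's adjusted p against both groups was 0.0274. Over the libraries numbered 1 to 4, which leaves out the numbers found in control groups alone, the log2 difference was 0.93 (edgeR's adjusted p = 0.325). The libraries numbered 5 and 6 were also the deepest. They had 37.3 and 29.7 megacounts in AAV-miR ctrl and 37.4 and 35.8 in non-injected mice. No AAV-miR SOD1 library had more than 22.8. Depth was thus mixed with group, and its part in the difference was not tested. Between 22317 and 23275 genes were detected in the AAV-miR SOD1 libraries and between 21444 and 23103 in the controls; with that number as covariate the log2 difference of Gpx1 was 0.79 against AAV-miR ctrl, 0.90 against non-injected mice and 0.84 against both. The unadjusted p was then 0.113, 0.11 and 0.0862, so 0 members were left under 0.05.

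Erythroid and neutrophil transcripts moved with Gpx1. The 6 erythroid markers (Hba-a1, Hba-a2, Hbb-bs, Hbb-bt, Alas2 and Slc4a1) summed to between 20903 and 47051 CPM in AAV-miR SOD1 and to between 3533 and 28121 CPM in the controls, and none was at 0 in any library. All 6 markers used had an unadjusted p under 0.05 and were higher in AAV-miR SOD1 than in both control groups, with 0 of 6 past the adjusted threshold. Over the 9 control libraries alone, Gpx1 and the erythroid sum on log2 scales had a Pearson r of 0.98 (exact permutation p = 1.65e-05, adjusted over 50 relations 0.00083) and a Spearman rho of 0.97 (exact permutation p = 0.00017, adjusted 0.0083). With the 2 libraries of most extreme erythroid sum left out, r was 0.96. With that sum as a covariate, the log2 difference of Gpx1 was 0.17 against AAV-miR ctrl, 0.11 against non-injected mice and 0.14 against both. The erythroid sum itself differed between groups, with a median of 37312 CPM in AAV-miR SOD1 and 8481 CPM in the controls. This fit therefore cannot tell the part of erythroid content from that of group. The sum of the 7 neutrophil markers, highest in AAV-miR SOD1 replicate 1 (77393 CPM) and AAV-miR ctrl replicate 1 (66156 CPM), had an r of 0.80 with Gpx1 over the same controls (exact permutation p = 0.0012, adjusted 0.015). Spearman's rho was 0.90 (exact permutation p = 0.0020, adjusted 0.034), and r was 0.69 without the 2 farthest libraries; the part of these cells in the difference of Gpx1 was not tested. Motoneuron markers went the other way: their sum ran from 1376 to 2498 CPM in AAV-miR SOD1 and from 2000 to 5269 CPM in the controls, and over the 9 controls it had an r of -0.83 with Gpx1 (exact permutation p = 0.0091, adjusted 0.076). The relations with marker sums were examined after the values had been seen.

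**Figure D4:**
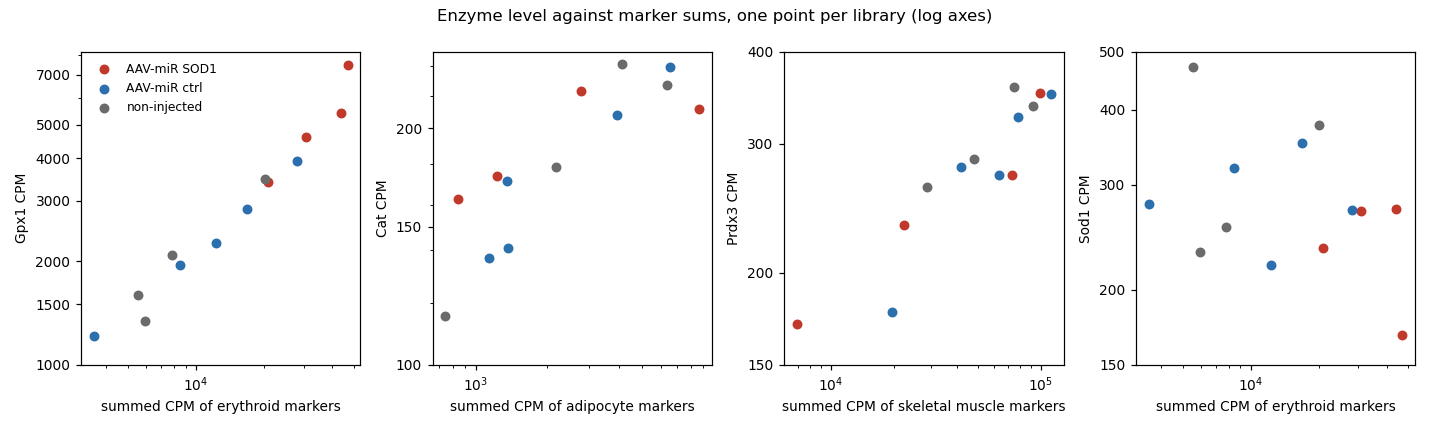
CPM of Gpx1, Cat, Prdx3 and Sod1 against the summed CPM of a marker list, on log axes, 1 point per library, coloured by group. Over the 9 control libraries r was 0.98 for Gpx1 with erythroid markers, 0.95 for Cat with adipocyte markers and 0.91 for Prdx3 with skeletal muscle markers, but 0.04 for Sod1 with erythroid markers.

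Gpx4 (ENSMUSG00000075706, chr10:80047166-80056439, plus strand) is the glutathione peroxidase that reduces lipid peroxides in membranes. It was at 189, 159, 296 and 248 CPM in AAV-miR SOD1, 173, 244, 238, 192 and 188 CPM in AAV-miR ctrl and 342, 247, 174 and 257 CPM in non-injected mice. Non-injected replicate 2 was the highest, AAV-miR SOD1 replicate 2 the lowest, and the groups overlapped. The log2 difference against both control groups was -0.04 ± 0.21 (SE; adjusted p = 0.931), a ratio of 0.97-fold, with 2 SE on either side reaching from 0.724 to 1.30. The count ratio of Gpx1 to Gpx4 had a median of 26.3 in AAV-miR SOD1, 10.4 in AAV-miR ctrl and 8.31 in non-injected mice, with the lowest AAV-miR SOD1 library at 11.5 and the highest control at 22.7. For Gpx4, GENCODE lists a pair of near-identical copies that are absent from the deposited counts, the closer matching at 99.7% over 762 bases. Between 15.3 and 33.8 megacounts per library were set aside as aligned to several places. The level of Gpx4 and its place among the members may therefore be understated, and the ratio of Gpx1 to Gpx4 overstated.

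Prdx1 (ENSMUSG00000028691, chr4:116685544-116700822, plus strand) is a cytosolic peroxiredoxin. Its levels were 208, 179, 359.5 and 263 CPM in AAV-miR SOD1, 235, 292, 293, 189 and 188 CPM in AAV-miR ctrl and 325, 221, 215 and 218 CPM in non-injected mice. AAV-miR SOD1 held both the highest library, replicate 3, and the lowest, replicate 2. Its 3 copies drew 0.256% as many counts as the gene. The log2 difference against both control groups was 0.06 ± 0.22 (SE; adjusted p = 0.907), a ratio of 1.04-fold, with 2 SE on either side reaching from 0.771 to 1.41.

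Prdx3 (ENSMUSG00000024997, chr19:60864051-60874556, minus strand), the mitochondrial peroxiredoxin, was at 232, 170.4, 351 and 272 CPM in AAV-miR SOD1, 177, 351, 326, 279 and 272 CPM in AAV-miR ctrl and 337, 286, 262 and 358 CPM in non-injected mice. AAV-miR SOD1 replicate 2 and AAV-miR ctrl replicate 1 were the lowest 2 libraries, and the groups overlapped. Against both control groups its log2 difference was -0.20 ± 0.22 (SE; adjusted p = 0.632), a ratio of 0.868-fold, with 2 SE on either side reaching from 0.64 to 1.18.

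Txn1 (ENSMUSG00000028367, chr4:57943373-57956411, minus strand), the cytosolic thioredoxin that reduces peroxiredoxins, was at 457, 463, 362 and 434 CPM in AAV-miR SOD1, 435, 472, 399.7, 396 and 442 CPM in AAV-miR ctrl and 433, 576, 361 and 316 CPM in non-injected mice. The non-injected group held both its highest library, replicate 3, and its lowest, replicate 6. The difference against both control groups was 0.01 ± 0.18 on the log2 scale (SE; adjusted p = 0.98), a ratio of 1.01-fold, with 2 SE on either side reaching from 0.789 to 1.29. The SE was the second smallest among the members, after that of Ccs, and a copy drew 0.161% as many counts.

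Other members followed markers of other tissues over the 9 controls. Cat had an r of 0.95 with the summed adipocyte markers (exact permutation p = 0.00012, adjusted 0.0030) and a rho of 0.93 (exact permutation p = 0.00075, adjusted 0.019), and r was 0.96 without the 2 farthest libraries. Prdx3 had an r of 0.91 with the summed skeletal muscle markers (exact permutation p = 0.00034, adjusted 0.0057) and a rho of 0.85 (exact permutation p = 0.0061, adjusted 0.061), and r was 0.81 without the 2. For Sod2 and muscle markers r was 0.85 (exact permutation p = 0.0027, adjusted 0.027) and rho 0.70 (exact permutation p = 0.043, adjusted 0.270), but r was 0.43 without the 2 farthest libraries, so this relation rests on those. These 3 and both of Gpx1 were the 5 of 50 relations (10 members with erythroid, neutrophil, motoneuron, skeletal muscle and adipocyte sums) that passed the adjusted threshold by Pearson's r. The muscle and adipocyte lists were added after the data had been seen, and the adjustment over 50 relations does not allow for that choice. Muscle markers summed to 6922 to 99696 CPM in AAV-miR SOD1 and to 19527 to 111707 CPM in the controls, and adipocyte markers to 841 to 8707 and to 744 to 6543 CPM.

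Among the members themselves, the mitochondrial pair Sod2 and Prdx3 had the most similar pattern over the 13 libraries, with a Pearson r of log2 CPM of 0.93. Gpx4 had an r of 0.81 with Prdx3 and 0.80 with Prdx1. The most opposed pairs were Sod3 and Txn1 at -0.75, Ccs and Txn1 at -0.67, and Sod2 and Gpx1 at -0.66. Of the 45 pairs, 28 were positive and 17 negative, 7 lay over 0.5 and 6 under -0.5, and the median was 0.25. These values describe libraries that share tissue, kit and a common scaling, and carry no test.

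**Figure D5:**
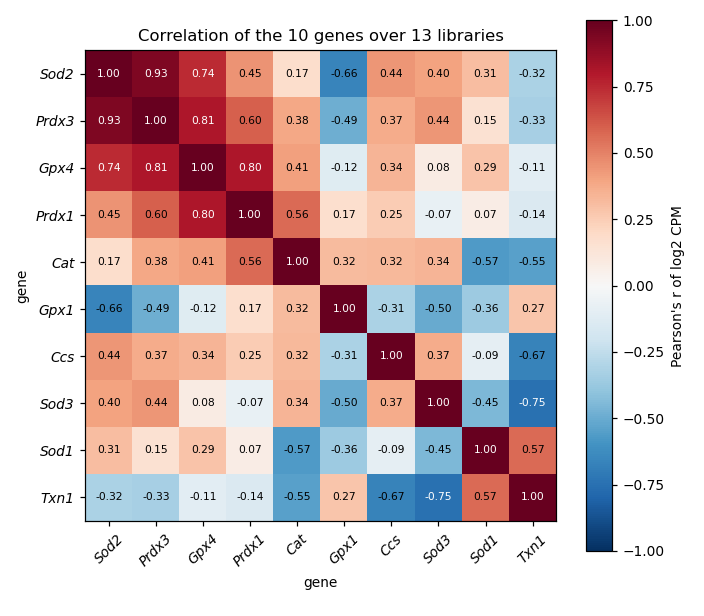
Pearson correlation of log2 CPM between each pair of members over 13 libraries, on a colour scale from -1 to 1. Sod2, Prdx3, Gpx4 and Prdx1 hold the 3 highest pairs (0.93, 0.81 and 0.80), and Txn1 the 2 lowest (-0.75 and -0.67).

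The tested genes whose log2 CPM was most like that of each member were taken from the 17402 other genes, again over 13 libraries and as a description. Gpx1 was most like Hbb-bt, a beta-globin gene, at an r of 0.99, then Ccne2 at 0.99 and Isg20 at 0.98. Sod2 was most like Suclg1 and Ndufs3, both at 0.99, and Idh3b at 0.98, which code for mitochondrial enzymes of the citric acid cycle and respiratory complex I. Prdx3 was most like Asb11 and Mtch2 at 0.97 and Gpam at 0.96. Sod3 was most like Adrb3, the beta-3 adrenergic receptor, at 0.94, Dgat2, an enzyme of triglyceride synthesis, at 0.93 and Cd248 at 0.91. With the summed adipocyte markers, over the 9 controls, Sod3 had an r of only 0.29 (exact permutation p = 0.445). Sod1 was most like Zfp30 at 0.95, Lonrf2 at 0.94 and Sgsm3 at 0.92. Gpx4 was most like Uqcrq, a subunit of respiratory complex III, Ubxn6 and Rmdn1, each at 0.94. For Prdx1 the nearest were Jtb at 0.96, S100a16 at 0.95 and 2610001J05Rik at 0.94, and for Cat they were Cdc73 at 0.93 with 9630013D21Rik and Rhoj at 0.92. Txn1 was nearest to Gm10080 and the ribosomal protein gene Rps16 at 0.92 and Rpl12 at 0.91, all 3 at a mean under 10 CPM. Ccs had the least similar neighbours, Tmem268 at 0.86 and Dcn and Myo5b at 0.83.

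The rest of the redox system was described through 6 lists, in AAV-miR SOD1 against both control groups. In each list 0 genes passed the adjusted threshold by edgeR, and the median log2 difference over all genes was -0.06. The counts at an unadjusted p under 0.05 given for these lists, and for markers, stand beside 10.2% of all genes higher and 12.1% lower. Of 19 genes of glutathione synthesis and use, 1 was higher and 2 lower at an unadjusted p under 0.05, with a median of 0.02. Gsta4 and Gstp1, glutathione transferases, had log2 differences of -0.81 ± 0.20 and -0.62 ± 0.21 (SE), and Gsr, which regenerates glutathione, had 0.88 ± 0.34. Of 12 other thioredoxin and peroxiredoxin genes, 2 were higher and 1 lower, with a median of -0.07. Txnrd2, the mitochondrial thioredoxin reductase, had 0.66 ± 0.17, Prdx2, an abundant peroxiredoxin of red blood cells, 0.51 ± 0.18, and Srxn1, which repairs over-oxidised peroxiredoxins, -0.77 ± 0.30.

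Of 16 regulators and targets of NRF2, 4 were higher and 1 lower, with a median of 0.27; Bach1, a repressor of such targets, had a log2 difference of 0.69 ± 0.23 (SE), and the list shares Gsr and Srxn1 with those above. Of 12 tested copper handling genes, 1 was higher and 0 lower, with a median of -0.09. That gene, Atp7b, a copper exporter, had 1.71 ± 0.59, while the metallothioneins Mt3 and Mt2 had -0.46 ± 0.25 and -0.35 ± 0.23. Atp7b was low, at 0.806 to 8.02 CPM in AAV-miR SOD1 and 0.114 to 3.05 CPM in the controls. Its lowest values reached the smallest detectable levels, and its unadjusted p by edgeR was 0.131 against AAV-miR ctrl. Of 10 genes of NADPH supply, 1 was higher and 0 lower, with a median of 0.24: Taldo1, of the pentose phosphate pathway, had 0.46 ± 0.20, the NAD kinase Nadk 0.52 ± 0.30 and G6pdx, the entry enzyme of that pathway, 0.41 ± 0.25.

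Of 10 tested NADPH oxidase and other oxidant-producing genes, 5 were higher and 1 lower, with a median of 0.75. Cybb, Cyba and Ncf1, subunits of the phagocyte oxidase, had log2 differences of 1.05 ± 0.32, 0.96 ± 0.30 and 1.20 ± 0.39 (SE). Neutrophil markers moved in the same direction: 5 of 7 were higher at an unadjusted p under 0.05, and their sum ran from 28466 to 77393 CPM in AAV-miR SOD1 and from 9969 to 66156 CPM in the controls. Of the microglia markers, 3 of 7 were higher, with sums of 635 to 880 CPM and 225 to 1078 CPM. No marker of either list was at 0, and their part in these differences was not tested.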

How the data were processed

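Raw read counts per gene, 1 table per library, were used as the authors deposited them. Per the submitters' processing notes, cutadapt 1.8, STAR 2.5.2b, HTSeq 0.6.1 and the GRCm38 mouse genome were used; the annotation release and the strand setting are not given in the sources used here. Per the labels' protocols, cDNA was amplified with a low-input kit, with no molecular identifiers described. Reads in no gene or ambiguous between genes made up 8.11% to 11.2% of uniquely aligned reads and were left out. Symbols came from GENCODE M21 for 48349 of 48709 gene rows.

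Counts were fitted in R 4.3.3 with edgeR 4.0.16 (quasi-likelihood F test on 13 libraries with 3 group levels, TMM scaling, filterByExpr with a minimum count of 10 and a minimum total of 15, leaving 17403 genes), with Benjamini-Hochberg adjustment over all of these and a threshold of 0.05. The comparison against both control groups used the mean of their 2 coefficients. Log2 CPM used a prior count of 2, and the SE is the log2 fold change over the root of F. Levels per length used the principal transcript. Copies were searched with blastn 2.17.0 (at least 90% identity over 300 bases). The code of the fit was also run on counts simulated independently for each gene. Such counts lack the variation that genes share between these libraries. DESeq2 1.42.0 and limma 3.58.1 were alternatives, beside other scalings and filters, covariates, the replicate number as a block and leaving out each library; the erythroid covariate, the fit without the 2 libraries with contradicted headers, and the muscle and adipocyte lists were added after seeing the data. Smallest detectable levels at 3 counts were 0.0802 to 0.216 CPM. The erythroid list was reduced by 1 gene, which is not reported here. The members, lists and markers were chosen with earlier results of these data known. Genes named beyond the members were, by rule, the 3 most correlated with each member and, in each list, up to 3 with the smallest p against both control groups. Replicates are separate mice by their labels. The edgeR p-values set group differences against the spread between these libraries, and the permutation p-values concern the relations with marker sums.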

Additional observations from a re-analysis of the deposited data

Results flagged for a closer look

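Each member was examined in each group for a library far from the others, and 2 of 30 such sets held one, where chance gives about 1 in 20, or 1.5. Sod2 in AAV-miR ctrl replicate 1 was at 181.6 CPM, with the other 4 libraries of the group between 362 and 377 CPM. Prdx1 in non-injected replicate 2 was at 325.2 CPM, with the other 3 between 215 and 221 CPM.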

How the results depend on the processing

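The number of members past the adjusted threshold was 0 in all 4 comparisons with edgeR and every alternative that kept all libraries, except the other 2 tools. It was 1, Gpx1, with DESeq2 against non-injected mice and against both control groups, and 1 with limma-voom and quality weights against both. Leaving out 1 library at a time gave 0 to 1 against both groups, the 1 being Gpx1 without AAV-miR ctrl replicate 1 (adjusted p = 0.0274). Gpx1 stayed positive in 25 of 25 alternatives against both control groups, with log2 differences from 0.14 to 1.44 and adjusted p from 0.0119 to 0.999, and an unadjusted p under 0.05 in 23 of the 25. Direction and side of the threshold were kept by 245 of 276 values under settings other than leaving out 1 library, and by 267 of 286 with 1 library left out. Numbers shared between groups gave no clear pairing of the libraries. Over 8 same-numbered pairs, deviations from the group means correlated between -0.189 and 0.243, and 5 of 16 comparisons were best with the own number. With so few pairs, whether libraries of the same number share a batch cannot be told. With the replicate number as a block, the count of members called stayed 0 in each comparison, and the log2 difference of Sod3 was 1.185 against AAV-miR ctrl, 0.40 against non-injected and 0.79 against both, where Cat was -0.0307, Prdx1 -0.13 and Txn1 -0.0859. Over libraries numbered 1 to 4, Sod3 was 0.22, 0.85 and 0.54 in the same order and 0.63 between the control groups, and against both groups Prdx1 and Txn1 were -0.11. With the erythroid sum as covariate, Sod3 was 1.62, 1.00 and 1.31, Gpx1 between the control groups -0.0596, and against both groups Cat was -0.22, Prdx1 -0.12 and Txn1 -0.0895. With the number of detected genes as covariate, Sod2 was 0.0093 against AAV-miR ctrl, and against both groups Cat was -0.12, Gpx4 0.13 and Prdx3 0.0194. Exchanging the 2 libraries with contradicted headers gave -0.15 for Gpx1 and 0.0398 for Sod1 between the control groups, and leaving both out gave 0.0411 for Gpx4 against both. With voom, Cat was -0.0209 and Prdx1 -0.00043 against both. With 1 library left out, ranges that crossed 0 were -0.64 to 0.28 for Sod3 against AAV-miR ctrl, -0.0409 to 0.57 for Gpx1 and -0.35 to 0.0023 for Sod1 between the control groups, and, against both groups, -0.0306 to 0.18 for Cat, -0.15 to 0.105 for Gpx4, -0.10 to 0.20 for Prdx1 and -0.0481 to 0.145 for Txn1. The cause of these changes was not tested. A fit on the groups compared alone has no separate value against both groups. The depth left each member far above the level of 3 counts, so read-counting error is small; spread between mice and spread from capture and amplification cannot be told apart here.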

Other observations

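Gm8566, the processed copy of Sod1, was at 8.41, 8.74, 6.49 and 11.9 CPM in AAV-miR SOD1, 11.8, 19.3, 17.1, 20.2 and 22.2 CPM in AAV-miR ctrl and 17.3, 29.3, 21.1 and 17.4 CPM in non-injected mice. The highest AAV-miR SOD1 library, replicate 4, lay just above the lowest control, AAV-miR ctrl replicate 1, and all others were apart. The log2 difference was -1.03 ± 0.25 (SE) against AAV-miR ctrl (edgeR's adjusted p = 0.256), -1.26 ± 0.26 against non-injected mice (adjusted p = 0.140) and -1.14 ± 0.23 against both (adjusted p = 0.0960), where 12.1% of all genes were lower at an unadjusted p under 0.05. Motoneuron markers lay lower as well: 7 of 7 at an unadjusted p under 0.05 against both groups, with a median log2 difference of -1.10. Both the copy and the motoneuron sum were highest in non-injected replicate 3 (29.3 and 5269 CPM) and lowest in AAV-miR SOD1 replicate 3 (6.49 and 1376 CPM), and no motoneuron marker was at 0; their part in the difference was not tested. Relative to Sod1 counts it ran from 2.76% to 5.00% in AAV-miR SOD1, from 4.33% to 7.78% in AAV-miR ctrl and from 4.60% to 8.28% in non-injected mice. It was singled out after its values had been seen. How reads were divided between the copy and Sod1, and whether human transgene reads fall on either, was not tested.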
